A study of Sus scrofa with 18 samples.

Results

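The genes that encode the proteasome were examined in the gastrocnemius muscle, a calf muscle, of growing pigs fed insect meal. Members were all probe sets (groups of array probes summarised to 1 value) whose only annotated gene symbol begins with PSMA, PSMB, PSMC, PSMD, PSME, PSMF or PSMG followed by a digit. By this rule 38 of 25388 probe sets were members, and they covered 36 genes. The pigs were male crossbreds, Piétrain × (German Landrace × German Edelschwein), 5 weeks old at the start, and were fed for 4 weeks. Group CON received a diet without insect meal, with soybean extraction meal as protein source. In group IM5, meal of the mealworm Tenebrio molitor L. made up 5% of the diet and took the place of 50% of the soybean meal. In group IM10 it made up 10% and took the place of 100%. Cellulose was added to the insect meal diets, more in IM10 than in IM5, and the added oils and free amino acids also differed between diets. The paper states that effects of these diets cannot be put down to constituents of insect meal alone. Each group was represented by 6 pigs chosen at random from those on its diet, all killed in the fed state, with 1 Affymetrix Porcine Gene 1.0 ST array per pig. The values are on a log2 scale after normalization by the authors, so a difference of 1 is a doubling, and differences below are in log2 units unless a fold is named.

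The proteasome is the main machine for selective protein breakdown in the cytosol and nucleus. Its barrel, the 20S core particle, is built of rings of alpha subunits (PSMA genes) and beta subunits (PSMB genes), and some of the beta subunits cut the protein chain inside it. The 19S cap is made of ATPases (PSMC genes) and non-ATPase subunits (most PSMD genes). It recognises proteins marked with ubiquitin, unfolds them and feeds them into the barrel, and core and cap together form the 26S proteasome. Under interferon gamma, inducible beta subunits (PSMB8, PSMB9 and PSMB10) replace the standard catalytic ones to give the immunoproteasome, whose PA28 activator is encoded by PSME1 and PSME2 and which cuts peptides for presentation on MHC class I. In skeletal muscle the ubiquitin-proteasome system degrades myofibrillar proteins, and it is known for its part in muscle wasting and in protein turnover during growth.

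The members comprised 11 probe sets of the 20S core (6 alpha, 5 beta), 17 of the 19S cap (5 ATPase, 12 non-ATPase), 4 of the immunoproteasome, 3 of other regulators, 2 of assembly chaperones, and 1 of PSMC3IP. PSMC3IP is no subunit of the proteasome: it shares the prefix of the symbol and encodes a protein of meiotic recombination, so it was counted among the 38 but put in a class of its own. The cap class followed the gene symbols, so it also held PSMD5, PSMD9 and PSMD10, which encode assembly chaperones of the base of the cap. PSMB9 and PSMD14 were each represented by 2 probe sets. Of 48 proteasome genes in the gene table of the Sscrofa11.1 assembly, 13 had no probe set of their own. They were PSMA2, PSMA7, PSMB1, PSMB2 and PSMB3 of the core, PSMC4, PSMD2, PSMD4 and PSMD7 of the cap, PSMG1, PSMG2, PSMB8 and PSMB10. Values for core and cap therefore cover only part of their subunits, and the immunoproteasome was read from PSMB9, PSME1 and PSME2. PSMA8, the testis form of an alpha subunit, and 1 probe set of PSMB9 (15308830) were among the dimmest 30% of all transcripts on these arrays.

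The arrays were alike as a whole. Array medians spanned 0.09, pairwise correlations over all transcripts ran from 0.977 to 0.991, and IM10 replicate 2 was least like the rest (mean r 0.981). Of the 12 muscle fibre markers listed, 5 were measured, and ACTA1, MYH1, MYLPF and PYGM lay between 11.81 and 13.12 in every pig. In that list the slow fibre myosin gene MYH7 stood apart, with values from 8.59 to 12.2. Whole muscle was measured, so fewer cells of a type and less RNA per cell cannot be told apart. The labels do not say which pigs shared a pen, and p-values treat pigs as independent.

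No member was differentially expressed in any of the 3 comparisons by the study's thresholds, an unadjusted P under 0.05 together with a fold change over 1.2 (limma, all 18 arrays in one fit). Between group IM10 and group CON, 0 of 38 members were higher and 0 were lower, where 1.12% and 1.17% of all transcripts were. In group IM5 compared with group CON, 0 members passed in either direction, against 1.09% of all transcripts higher and 1.01% lower. From IM5 to IM10 it was again 0 members, against backgrounds of 1.43% higher and 1.32% lower. At such rates fewer than 1 of 38 probe sets would be called, so these zeros do not set the members apart. By P under 0.05 without the fold limit, 1 member passed in IM10 vs CON (2.63% of members, 4.38% of all transcripts), 1 in IM5 vs CON (2.63% and 3.7%) and 2 in IM10 vs IM5 (5.26% and 5.22%). After Benjamini-Hochberg adjustment over all transcripts by limma, 0.00394% of all transcripts had an adjusted p under 0.05 in IM10 vs CON and 0.0% in the other comparisons, no member fell below an adjusted p of 0.93, and no member had groups without overlap in any comparison (0.213%, 0.15% and 0.177% of all transcripts had).

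The sizes that the data allow are narrow. In IM10 vs CON, the 95% interval of the difference lay wholly within 1.2-fold for 20 of 38 members (52.6%), compared with 28.8% of all transcripts. The corresponding counts were 23 (60.5%, all transcripts 30.6%) in IM5 vs CON and 18 (47.4%, all transcripts 27.6%) in IM10 vs IM5. Within 1.5-fold lay 37 of 38 members in each comparison, against 93.7%, 94.3% and 93.5% of all transcripts, and the exception each time was the dim PSMB9 probe set. A missed threshold does not show that groups were equal, and these intervals give the limits of what may have been missed. The plot of group differences shows the same by class.

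**Figure D1:**
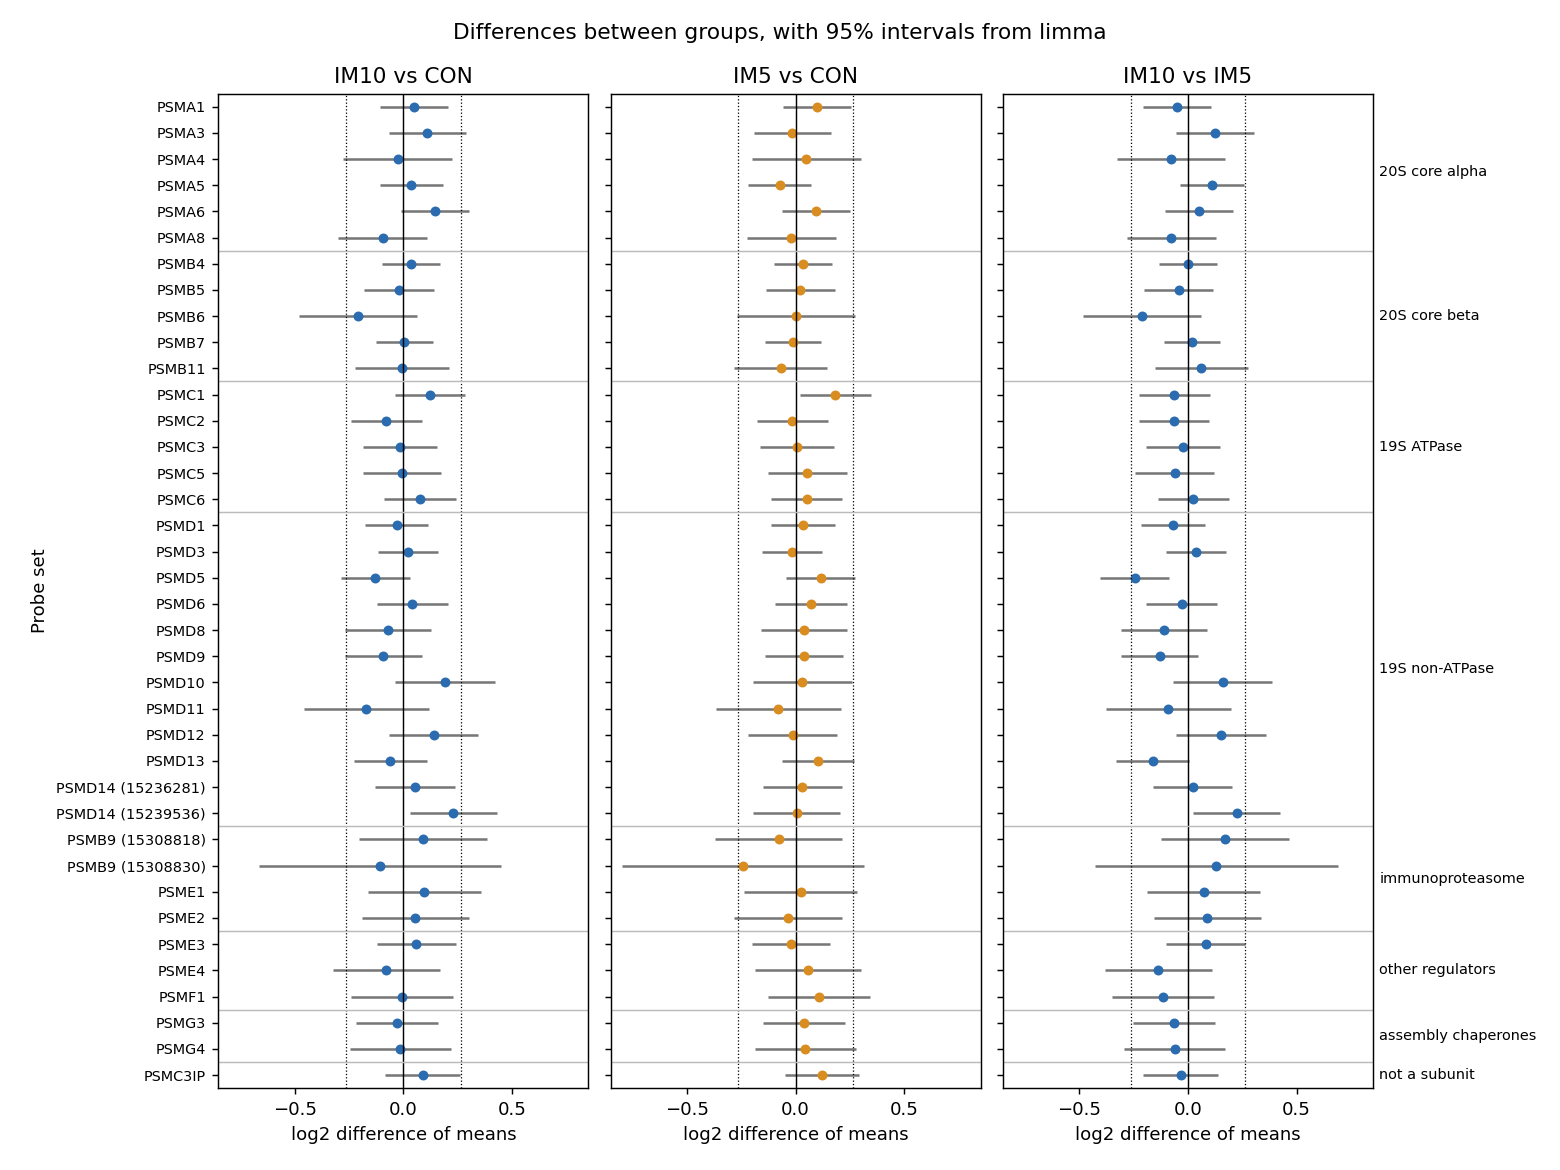
Log2 difference of group means (x axis) for each of the 38 proteasome probe sets (y axis, ordered by class) in IM10 vs CON, IM5 vs CON and IM10 vs IM5; points are differences, bars 95% intervals from limma, dotted lines mark a 1.2-fold change, n = 6 pigs per group. The points lie within the dotted lines in all 3 panels, and the longest bars belong to PSMB9 (15308830).

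The class medians were small in every comparison. In IM10 vs CON the median difference was 0.005 for the 20S core, -0.0067 for the 19S cap and 0.073 for the immunoproteasome, beside -0.0017 for all transcripts. In IM5 vs CON the medians were 0.0017, 0.035 and -0.057, beside 0 for all transcripts. For IM10 vs IM5 they came to 0, -0.06 and 0.11, beside -0.0033. Of the 28 core and cap members, 14 had a higher and 14 a lower mean in IM10 than in CON, while in IM5 19 were higher and 9 lower. These are descriptions of the members, which share arrays and are no replicates of each other.

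Among the alpha subunits, which form the outer rings of the barrel and its gate, PSMA6 had the largest difference between IM10 and CON. Its log2 value was lowest at 8.13, median 8.30 and highest 8.42 in CON, 8.29, 8.36 and 8.49 in IM5, and 8.31, 8.40 and 8.60 in IM10. The groups overlapped, with the IM10 pigs reaching furthest up. The difference was 0.15 (95% interval -0.012 to 0.30, limma adjusted p = 0.991). PSMA3 had a mean of 8.27 ± 0.071 (SD, n = 6) in CON, 8.25 ± 0.073 in IM5 and 8.38 ± 0.203 in IM10, a difference of 0.11 between IM10 and CON (-0.067 to 0.29). PSMA1 differed most in IM5, by 0.10 from CON (-0.056 to 0.26), with 6 IM5 pigs within 7.19 to 7.30 and CON pigs from 7.00 to 7.32. The remaining alpha members, PSMA4, PSMA5 and PSMA8, differed by -0.095 to 0.05 from CON in either insect meal group.

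The catalytic beta subunits differed in their spread. PSMB5 carries the chymotrypsin-like site, PSMB6 the caspase-like site and PSMB7 the trypsin-like site. PSMB7 was the steadiest member of all, with a within-group SD of 0.058 and pigs between 8.02 and 8.23, and its difference was 0.005 in IM10 vs CON (-0.12 to 0.13) and -0.013 in IM5 vs CON (-0.14 to 0.12). PSMB5 ranged from 6.77 to 7.08 in CON, 6.82 to 7.06 in IM5 and 6.71 to 7.02 in IM10, and differed by -0.02 (-0.18 to 0.14) and 0.02 (-0.14 to 0.18) from CON.

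PSMB6 was more variable (SD 0.24). Its values were 7.24, 7.79 and 7.83 (lowest, median, highest) in CON, 7.23, 7.74 and 7.91 in IM5, and 7.18, 7.49 and 7.75 in IM10. The medians of CON and IM5 lay close to the tops of their groups, and 1 pig of each, CON replicate 6 and IM5 replicate 6, lay far below, whereas IM10 held 2 such low pigs, replicates 1 and 6. The mean in IM10 was 0.21 below CON (-0.48 to 0.064, limma unadjusted P = 0.126, adjusted p = 0.991) and 0.21 below IM5 (-0.48 to 0.062), while IM5 and CON differed by 0.0017 (-0.27 to 0.27). Without CON replicate 6 the difference between IM10 and CON was -0.29 and passed both thresholds (limma unadjusted P = 0.029), and without IM5 replicate 6 that between IM10 and IM5 was -0.30 and passed (unadjusted P = 0.0259), so the outcome for this subunit rests on single pigs. PSMB4, a non-catalytic beta subunit, differed by 0.033 from CON in both insect meal groups (-0.10 to 0.17). PSMB11, whose product is known as the beta subunit of cortical thymus cells, differed by -0.0067 (-0.22 to 0.21) in IM10 and -0.068 (-0.28 to 0.15) in IM5.

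In the ATPase ring of the cap, PSMC1 had the only difference from CON in IM5 with P under 0.05. Values in CON were 6.93, 7.12 and 7.19, in IM5 7.16, 7.26 and 7.41, and in IM10 7.02, 7.19 and 7.41. All IM5 pigs lay at or above 7.16, and 4 of the 6 CON pigs lay below that value. The difference between IM5 and CON was 0.18, or 1.14-fold (1.02 to 1.27), with a limma unadjusted P of 0.028 and an adjusted p of 0.998, and in IM10 it was 0.12 (-0.040 to 0.28). PSMC2 differed by -0.078 (-0.24 to 0.083) in IM10 and -0.015 (-0.18 to 0.15) in IM5. PSMC5 differed by -0.0067 (-0.19 to 0.17) and 0.053 (-0.13 to 0.23). The remaining ATPases, PSMC3 and PSMC6, differed by -0.017 to 0.077 from CON in either insect meal group.

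PSMD14 encodes the deubiquitinase of the lid, which takes ubiquitin chains off a substrate as it enters. Its 2 probe sets did not move together. With probe set 15239536 the log2 value was 6.12, 6.28 and 6.58 (lowest, median, highest) in CON, 6.09, 6.27 and 6.59 in IM5, and 6.44, 6.51 and 6.65 in IM10. IM10 pigs lay in the upper part of the range of the other groups, and 4 pigs of CON and 4 of IM5 lay below all of them. The difference was 0.23, or 1.17-fold (1.02 to 1.35), from CON (limma unadjusted P = 0.0264, adjusted p = 0.991) and 0.23 from IM5 (unadjusted P = 0.0294, adjusted p = 0.931). With the other probe set, 15236281, it was 0.053 (-0.13 to 0.23) from CON and 0.023 (-0.16 to 0.20) from IM5. Over the 18 pigs, around the group means, the correlation between these probe sets was 0.042 (permutation p = 0.874), so the value for PSMD14 depends on the probe set read. Without CON replicate 2 the first probe set passed both thresholds in IM10 vs CON (0.29, limma unadjusted P = 0.00692), and without IM5 replicate 5 it passed in IM10 vs IM5 (0.28, unadjusted P = 0.00749).

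PSMD5, a chaperone in the assembly of the base of the cap, had the smallest P of any member, in IM10 vs IM5. Pigs of CON had 6.15, 6.26 and 6.39, pigs of IM5 6.18, 6.39 and 6.53, and pigs of IM10 6.04, 6.14 and 6.25. Except for IM5 replicate 2, every IM5 pig lay above every IM10 pig, and CON overlapped both. IM10 was 0.24 below IM5, a fold of 0.845 (0.757 to 0.943), with a limma unadjusted P of 0.00439 and an adjusted p of 0.931. From CON the differences ran in opposite directions, 0.12 in IM5 (-0.043 to 0.27) and -0.13 in IM10 (-0.29 to 0.030), and neither had a P under 0.05. The IM10 vs IM5 difference was just short of 1.2-fold and passed without IM5 replicate 2 (-0.28, limma unadjusted P = 0.00128) or without IM10 replicate 6 (-0.27, unadjusted P = 0.00344).

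Of the other non-ATPase members, PSMD10, encoding gankyrin, another assembly chaperone of the base, differed by 0.19 (-0.037 to 0.42) in IM10 and 0.032 (-0.20 to 0.26) in IM5. PSMD11, a lid subunit, had the widest spread among core and cap members (SD 0.26). Its values were 8.79, 9.28 and 9.50 in CON, 8.95, 9.15 and 9.53 in IM5, and 8.59, 9.17 and 9.43 in IM10, with CON replicate 6 and IM10 replicate 6 the lowest of their groups. It differed by -0.17 (-0.46 to 0.12) in IM10 and -0.08 (-0.37 to 0.21) in IM5. PSMD13, also of the lid, differed by -0.06 (-0.23 to 0.11) in IM10 and 0.10 (-0.064 to 0.27) in IM5, and by -0.16 between IM10 and IM5 (-0.33 to 0.0045). The remaining non-ATPase members, PSMD1, PSMD3, PSMD6, PSMD8, PSMD9 and PSMD12, differed by -0.092 to 0.14 from CON in either insect meal group. The plot of selected core and cap genes gives each pig for the members above.

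**Figure D2:**
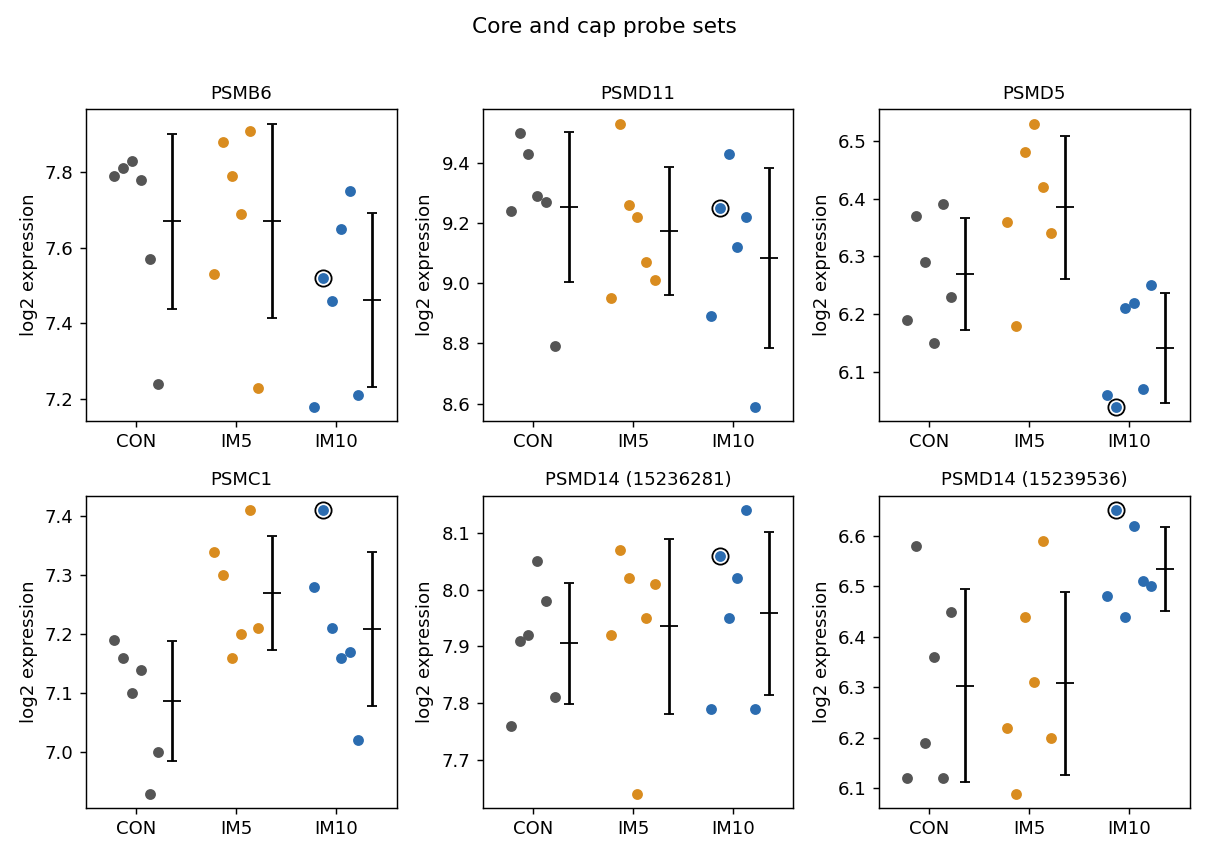
Log2 expression (y axis) of PSMB6, PSMD11, PSMD5, PSMC1 and the 2 PSMD14 probe sets in each pig of CON, IM5 and IM10 (x axis); points are pigs, the mark and bar beside them the mean and SD of 6 pigs, and the circled point is IM10 replicate 2. For PSMB6 each group holds pigs near 7.2, and the IM10 median (7.49) lies below those of CON (7.79) and IM5 (7.74), whereas for PSMD14 (15239536) all IM10 pigs lie at 6.44 or above.

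The immunoproteasome genes varied more between pigs than the core and cap. PSMB9 encodes the inducible counterpart of PSMB6, and PSME1 and PSME2, neighbouring genes, encode the alpha and beta chains of PA28. The median within-group SD was 0.244 for the 4 immunoproteasome probe sets, 0.119 for the 28 of core and cap, and 0.184 for all transcripts above the dimmest 30%. PSMB9 (15308818) had 5.17, 5.52 and 5.98 in CON, 5.28, 5.43 and 5.73 in IM5, and 5.21, 5.62 and 6.12 in IM10. PSME1 had 6.70, 6.82 and 7.03 in CON, 6.71, 6.88 and 7.07 in IM5, and 6.58, 6.90 and 7.45 in IM10. PSME2 had 6.07, 6.39 and 6.59 in CON, 6.09, 6.35 and 6.52 in IM5, and 6.14, 6.33 and 6.82 in IM10. For all 3 the groups overlapped over most of their range, and IM10 held the highest pig.

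Differences between IM10 and CON were 0.092 (-0.20 to 0.39) for PSMB9 (15308818), 0.097 (-0.16 to 0.36) for PSME1 and 0.055 (-0.19 to 0.30) for PSME2. In IM5 vs CON they were -0.078 (-0.37 to 0.22), 0.023 (-0.24 to 0.28) and -0.035 (-0.28 to 0.21), and all adjusted p-values from limma in these comparisons were above 0.99. The dim PSMB9 probe set (15308830) ran from 2.79 to 4.19 in CON, 2.31 to 3.97 in IM5 and 2.65 to 4.10 in IM10, and differed by -0.11 (-0.66 to 0.45) and -0.24 (-0.80 to 0.32). The IM10 means rested in part on IM10 replicate 2, which had the highest value of all 18 pigs for PSMB9 (15308818), PSME1 and PSME2, and for 7 of the 38 members. Without this pig the differences between IM10 and CON became -0.0043, -0.004 and -0.026, and the median over the class became -0.015. Among the groups, IM10 had the widest range for these 3 probe sets, with an SD of 0.343 for PSME1 beside 0.140 in CON and 0.126 in IM5, while for the dim PSMB9 probe set IM5 had it, and the difference in spread was not tested.

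**Figure D3:**
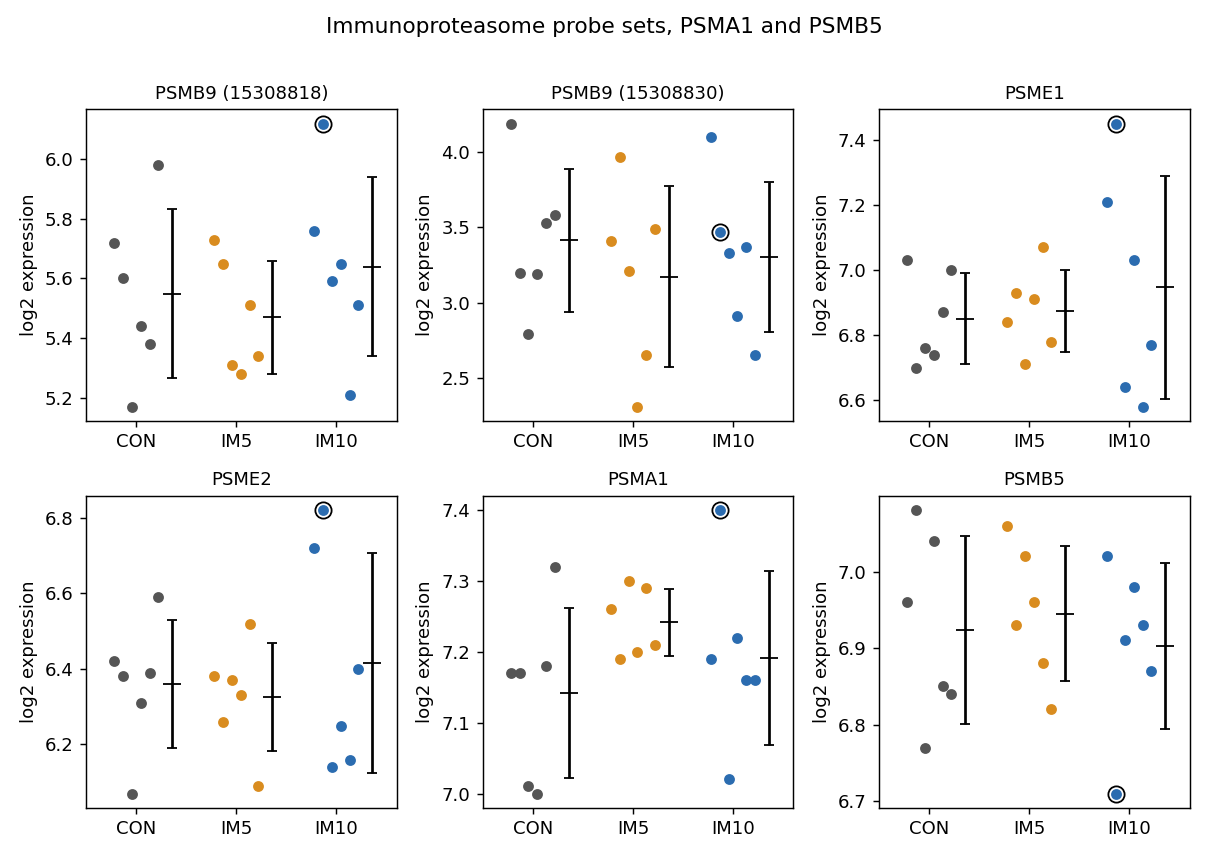
Log2 expression (y axis) of the 4 immunoproteasome probe sets and of PSMA1 and PSMB5, both core subunits, in each pig of CON, IM5 and IM10 (x axis); points are pigs, the mark and bar the mean and SD of 6 pigs, and the circled point is IM10 replicate 2. That pig is the highest of all for PSMB9 (15308818), PSME1, PSME2 and PSMA1 and the lowest for PSMB5.

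Markers of white blood cells moved with these genes, those of macrophages and monocytes more than those of lymphocytes. In IM10 replicate 2 the 13 macrophage and monocyte probe sets (12 genes of 14 listed, among them CSF1R and CD14) had a median 1.03 above their mean over all pigs, and 12 of the 13 were at their highest there. Over the other pigs the median of these markers ran from -0.457 to 0.413, the latter in CON replicate 6, which had the second highest PSMB9 (15308818), at 5.98. The second highest PSME1 and PSME2 were in IM10 replicate 1, at 7.21 and 6.72, where the median of these markers was 0.103. By group the median of these markers ran from -0.457 to 0.413 in CON, from -0.414 to 0.154 in IM5 and from -0.417 to 1.03 in IM10. Of the 13 probe sets 1, that of LYZ, was among the dimmest 30%. Lymphocyte markers (12 probe sets, 4 of them dim) had a median deviation of 0.346 in IM10 replicate 2, and ranged from -0.211 to 0.238 in CON and from -0.254 to 0.0069 in IM5. Muscle fibre markers in IM10 replicate 2 had a median deviation of -0.129. The part of such cells in the immunoproteasome values was not tested.

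The members were also compared for how pigs varied around their group means. Differences between group means do not enter this measure, but the groups were pooled, and a difference in spread between them still enters. For the 6 pairs of immunoproteasome probe sets the median Pearson r over 18 pigs was 0.592, and 0.542 without IM10 replicate 2. Pairs of immunoproteasome and core or cap members had a median r of -0.106, and the 378 pairs within core and cap one of 0.118, beside -0.013 for pairs of a core or cap member with a transcript that is no member. The low value for the 26S members was sensitive to scale, since centring each array on its median raised it to 0.213 and that with non-members to 0.024. All pairs share arrays and normalization, and the medians are descriptions. The immunoproteasome members had a median r of 0.621 with macrophage markers (0.434 without IM10 replicate 2) and of 0.497 with MHC class I pathway and interferon gamma target genes (0.448 without that pig), while for core and cap members these medians were -0.068 and -0.086. With lymphocyte markers the median r was 0.324 for the immunoproteasome members (0.182 without that pig) and -0.024 for core and cap members.

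Of 703 pairs of members tested by permutation of pigs within groups, 4 had a Benjamini-Hochberg adjusted p under 0.05 for Pearson's r, all positive, and none had for Spearman's rho. PSMC5 and PSMD11 had r = 0.815 (permutation p = 2e-05, adjusted 0.0141) and rho = 0.794 (permutation p = 0.00031, adjusted 0.0879), and r was 0.784 without the 2 pigs farthest out. PSMB6 and PSMC5 had r = 0.829 (permutation p = 0.0001, adjusted 0.0351) and rho = 0.758 (permutation p = 0.00098, adjusted 0.138), with 0.705 left without those 2 pigs. In both pairs a core or lid subunit followed an ATPase of the base. PSMB7 and PSMD13 had r = 0.822 (permutation p = 0.00018, adjusted 0.0351) and rho = 0.833 (permutation p = 8e-05, adjusted 0.0562), and 0.767 without the 2 pigs. PSMA1 and PSME2 had r = 0.758 (permutation p = 0.0002, adjusted 0.0351) and rho = 0.76 (permutation p = 0.0005, adjusted 0.0879), with 0.601 without the 2 pigs and 0.651 without IM10 replicate 2. PSMA1 had the highest r with PSME2 of all core and cap members. PSME1 and PSME2, the chains of 1 complex, had r = 0.798 (permutation p = 0.00169, adjusted 0.0924) and rho = 0.686 (permutation p = 0.00834, adjusted 0.24), and 0.668 without the 2 pigs.

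Some members of core and cap shared a pattern. PSMB6, PSMC5, PSMD1, PSMD6 and PSMD11 varied together across pigs, with r from 0.482 to 0.829 over their 10 pairs, and so did PSMB7, PSMD5, PSMD8 and PSMD13, with r from 0.424 to 0.822 over 6 pairs. The 20 pairs between these sets had r from -0.597 (PSMB6 with PSMD13) to 0.33 (PSMD1 with PSMD5), median -0.126, with 13 negative and 7 positive. Genes named in this paragraph were picked from the correlations, so that their grouping is a description.

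**Figure D4:**
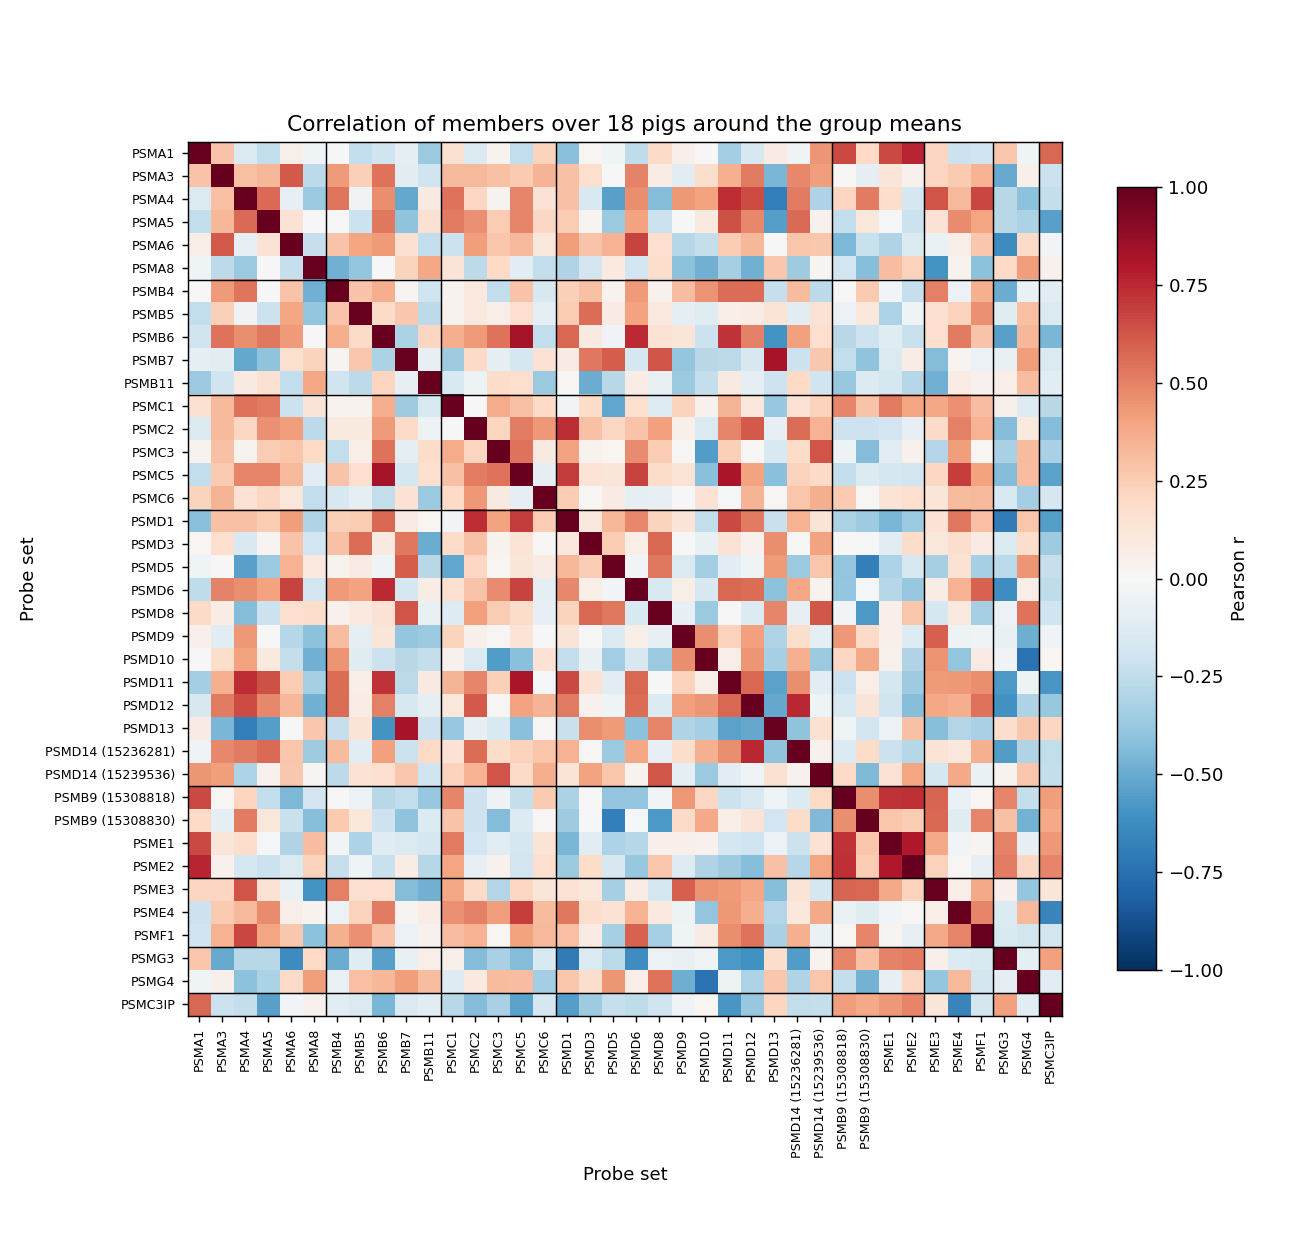
Pearson r (colour, from -1 to 1) between each pair of the 38 proteasome probe sets (both axes, ordered by class, lines between classes) over 18 pigs after subtraction of group means. The immunoproteasome block is positive throughout (median 0.592), whereas core and cap blocks mix positive and negative pairs.

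Muscle fibre markers varied with some of the same members. All 38 members were correlated with each of the 5 measured fibre markers around the group means, 190 relations in all, of which 4 had an adjusted p under 0.05 for Pearson's r and 2 for Spearman's rho. PYGM encodes the glycogen phosphorylase of muscle, which is most abundant in fast fibres, and MYH7 the myosin heavy chain of slow fibres. PSMD1, a large scaffold subunit of the base, had r = 0.822 with PYGM (permutation p = 1e-05, the smallest the permutations can give, adjusted 0.0019) and rho = 0.765 (permutation p = 2e-05, adjusted 0.0038), with r = 0.744 without the 2 pigs farthest out for PYGM. PSMC5 had r = 0.817 (permutation p = 0.00018, adjusted 0.0171) and rho = 0.809 (permutation p = 0.00018, adjusted 0.0171), and 0.772 without the 2 pigs. PSMB6 had r = 0.771 (permutation p = 0.00072, adjusted 0.0418) and rho = 0.717 (permutation p = 0.00412, adjusted 0.112), and 0.623 without them.

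With MYH7 the same 3 members ran the other way, at r = -0.709 for PSMD1 (permutation p = 0.0031, adjusted 0.0602), -0.686 for PSMC5 (permutation p = 0.00303, adjusted 0.0602) and -0.639 for PSMB6 (permutation p = 0.00725, adjusted 0.0961), none below 0.05 after adjustment. Of the 28 core and cap members, 21 had a negative r with MYH7 (median -0.274) and 7 a negative r with PYGM (median 0.269). ACTA1, the remaining marker of the list, had a negative r with 8 of the 28 (median 0.21), as PYGM had with 7. Its r was 0.643 with PSMB6, 0.71 with PSMC5 and 0.447 with PSMD1, none with an adjusted p under 0.05. Without 2 pigs these were 0.236, 0.517 and 0.15. The genes of fast fibre myosin did not give 1 direction. MYH1, a fast myosin heavy chain, had a negative r with 20 of the 28 (median -0.19) and with PSMB6 (-0.463), PSMC5 (-0.431) and PSMD1 (-0.114), as MYH7 had, whereas MYLPF, the fast regulatory light chain, had a negative r with 8 of the 28 (median 0.153) and a positive one with PSMB6 (0.538), PSMC5 (0.548) and PSMD1 (0.527). The 4 immunoproteasome probe sets had r from 0.165 to 0.361 with MYH7, from -0.409 to -0.321 with PYGM and from -0.473 to -0.173 with MYH1. With MYLPF they had r from -0.535 to -0.189, and with ACTA1 from -0.334 to -0.004. Centring each array on its median left r at 0.843 for PSMD1, 0.847 for PSMC5 and 0.785 for PSMB6 with PYGM. In the pigs, PSMB6 was 7.24 in CON replicate 6 with MYH7 at 11.56, 7.23 in IM5 replicate 6 with MYH7 at 12.2, 7.18 in IM10 replicate 1 with MYH7 at 12.09 and 7.21 in IM10 replicate 6 with MYH7 at 11.54. The relation was not strict, since CON replicate 1 had PSMB6 at 7.79 and MYH7 at 11.58. IM5 replicate 1 had PSMB6 at 7.53 and MYH7 at 11.66. IM5 replicate 5 had the highest PSMB6 of all pigs, 7.91, with MYH7 at 11.05. The fourth relation past adjustment was PSMA4 with the fast myosin gene MYH1, at r = -0.738 (permutation p = 0.00088, adjusted 0.0418), with rho = -0.725 (permutation p = 0.00174, adjusted 0.0826) and r = -0.828 without 2 pigs. Between the groups, MYH7 was 0.50 higher in IM10 than in CON with an SE of 0.52 (limma adjusted p = 0.992), and its part in the PSMB6 difference was not tested.

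No difference passed the thresholds for the activators and the inhibitor outside the immunoproteasome. PSME3 encodes the nuclear activator PA28 gamma and differed by 0.06 (-0.12 to 0.24) in IM10 and -0.022 (-0.20 to 0.16) in IM5. PSME4 encodes PA200, a cap that works without ATP, and differed by -0.078 (-0.32 to 0.17) and 0.057 (-0.19 to 0.30), the latter with IM5 replicate 5 at 9.45 while the other IM5 pigs lay between 8.69 and 8.95. PSMF1, encoding the inhibitor PI31, differed by -0.005 (-0.24 to 0.23) and 0.11 (-0.13 to 0.34). The chaperones of core assembly PSMG3 and PSMG4 differed by -0.028 (-0.22 to 0.16) and -0.015 (-0.25 to 0.22) in IM10 and by 0.037 (-0.15 to 0.22) and 0.045 (-0.19 to 0.28) in IM5. PSMC3IP, which is no subunit, differed by 0.088 (-0.083 to 0.26) and 0.12 (-0.049 to 0.29).

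Genes upstream of the proteasome were counted from lists. The transcription factor NFE2L1 is known to raise proteasome genes when the proteasome is inhibited. Of the 12 listed genes of that pathway 7 were measured, by 8 probe sets, and NFE2L1 itself was not among them. In this list 0 were called in any comparison. Median differences were 0.029 in IM10 vs CON, 0.062 in IM5 vs CON and -0.048 in IM10 vs IM5. Of 19 genes of proteasome assembly and ubiquitin delivery 11 were measured, by 12 probe sets, with 0 called and medians of 0.0092, -0.023 and -0.011. Among ubiquitin genes, UBB was higher in IM5 than in CON by 0.33 ± 0.12 (SE, limma unadjusted P = 0.0143, adjusted p = 0.998), 1 call among 3 probe sets (1.09% of all transcripts were called higher), of which the other 2, both of RPS27A, held identical values. In IM10 UBB was 0.14 ± 0.12 above CON. Its call in IM5 vs CON was kept in all 18 fits that left out 1 pig, with differences from 0.265 to 0.419. Among 19 probe sets of the MHC class I pathway and interferon gamma targets, the 2 of B2M, the light chain of MHC class I, were higher in IM10 than in IM5, by 0.36 and 0.38, both with a limma adjusted p of 0.931, where 1.43% of all transcripts were called higher. In the same comparison 3 of 12 probe sets of the lymphocyte list, CD2, CD3E and PTPRC, were higher, by 0.48, 0.36 and 0.62 (limma adjusted p = 0.931). PTPRC is not particular to lymphocytes. The median difference over the 12 probe sets was 0.17. CD3G (-0.19), CD79A (-0.11) and GZMB (-0.022), all among the dimmest 30%, had a lower mean in IM10, and the uncalled others a higher one. Of 6 endothelial probe sets, 1 of the 2 of KDR, a receptor of vascular endothelial growth factor, was higher by 0.30 (limma adjusted p = 0.931); it was among the dimmest 30%, and the brighter one also differed by 0.30 and did not pass. When each of the 18 pigs was left out in turn, the calls of B2M were lost in 8 and 7 of the 18 fits, that of CD2 in 11, those of CD3E and PTPRC in 5 each, and that of KDR in 4. Without IM10 replicate 2 the differences were 0.32 and 0.34 for B2M, 0.41 for CD2, 0.28 for CD3E and 0.38 for PTPRC, and none of these 5 probe sets passed. In that comparison all 4 immunoproteasome probe sets had a higher mean in IM10, by 0.073 to 0.17, and none passed.

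**Figure D5:**
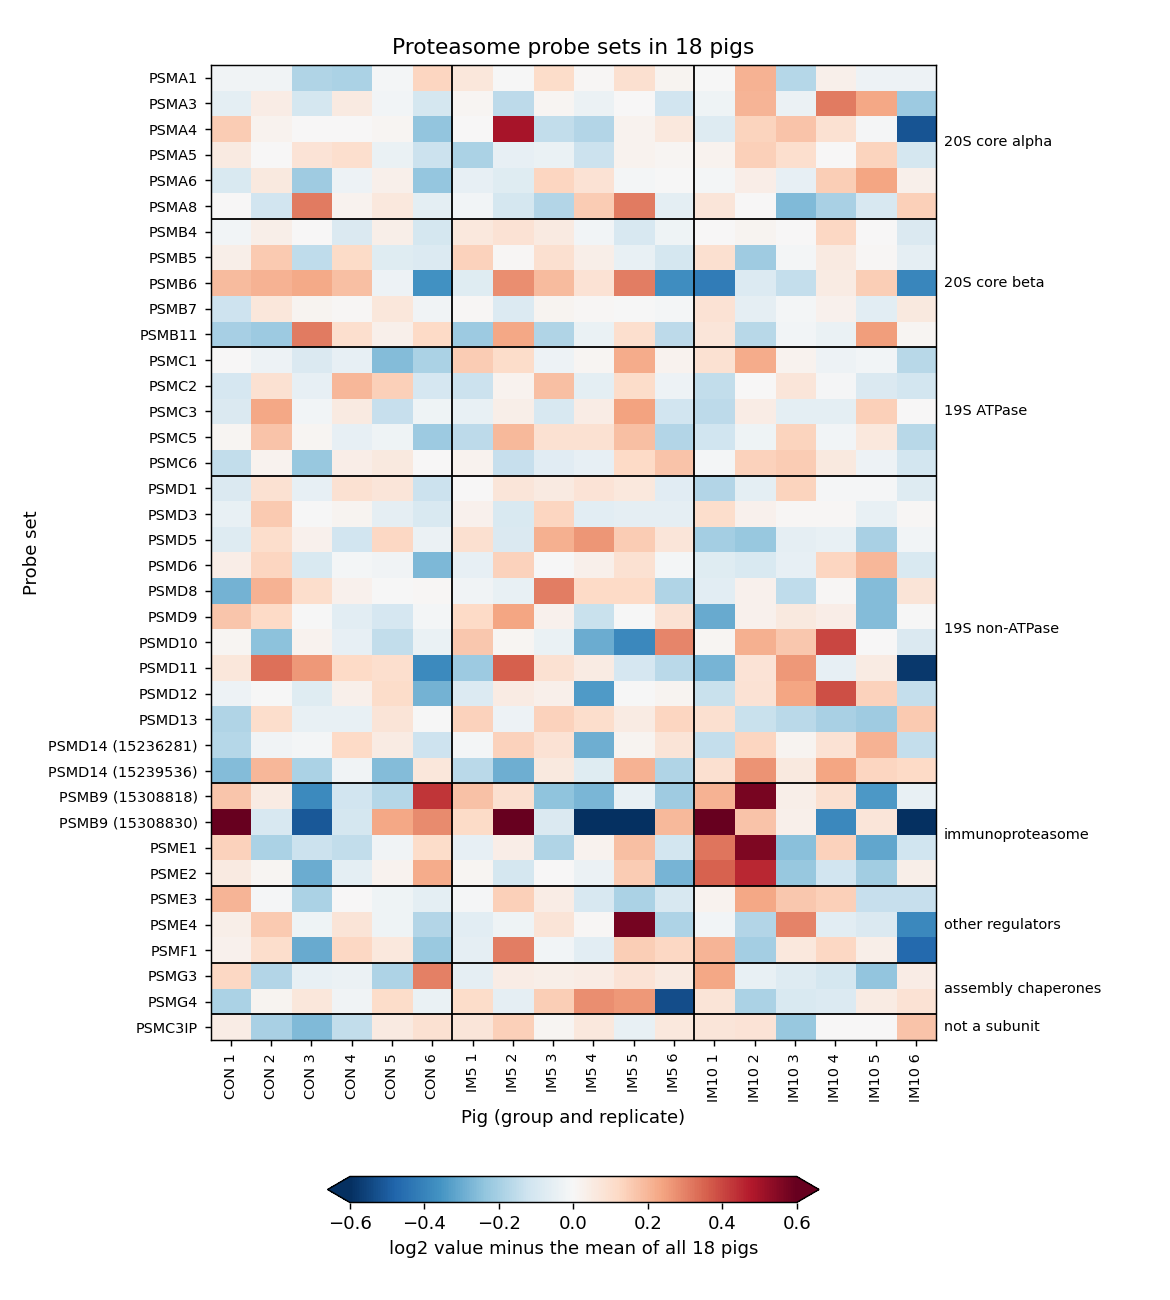
Deviation of each log2 value from the mean of all 18 pigs (colour, capped at 0.6 in either direction) for the 38 proteasome probe sets (rows, by class) in each pig (columns, by group). Core and cap rows are pale in most pigs, and the rows of PSMB9 (15308818), PSME1 and PSME2 are darkest in IM10 replicate 2. The low PSMB6 values stand in CON replicate 6, IM5 replicate 6 and IM10 replicates 1 and 6, and the lowest PSMD11 values in CON replicate 6 and IM10 replicate 6.

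Single pigs stood out within their groups for the core and cap. In CON replicate 6, 22 of the 28 members lay below the mean of their group. In IM10 replicates 1 and 6 21 did, in IM5 replicate 6 20, and at the other end in CON replicate 2 only 4. These counts leave out differences between groups. Below the mean of all pigs lay 23 in CON replicate 6, 19 in IM10 replicate 6 and 7 in CON replicate 2. In IM10 replicate 1 and IM5 replicate 6 it was 17, as in CON replicate 1. The median deviation of the 28 from their means over all pigs ran from -0.096 in CON replicate 6 to 0.079 in CON replicate 2, both of 1 group. It was lowest in replicate 6 of each group, at -0.096 in CON, -0.019 in IM5 and -0.082 in IM10. The labels do not say what the replicate numbers stand for, and a source shared by these pigs was not tested. The group means of this median deviation were -0.0058 in CON, 0.018 in IM5 and -0.0059 in IM10, all within the SD of 0.030 to 0.058 among pigs of a group.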

How the data were processed

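The authors hybridised total RNA of gastrocnemius muscle to Affymetrix Porcine Gene 1.0 ST arrays and, per the submitters' processing notes, used Affymetrix Expression Console and RMA (background correction, quantile normalization and summary of probes). The deposited values are log2 expression values of 25388 transcripts for 18 arrays, to 2 decimals, and were used as deposited; 0 value columns were left out, and no arrays were identical. The quantile normalization in RMA draws the distributions of the arrays together (medians of the deposited values still spanned 0.09), so a shift of most transcripts could be missed, and the number of arrays limits the precision.

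Probe sets were named by the platform annotation: 13327 had 1 gene symbol, 357 several and 11704 none, and only those with 1 were named, so that PSMB8 and PSMD4, which occur only beside other symbols, were left out. No sequence was used here. Groups came from the sample titles. Groups were compared with limma 3.58.1 (R 4.3.3) in one fit of all 18 arrays with group means, the thresholds were those of the study, and p-values were adjusted by Benjamini-Hochberg over all transcripts. Correlations were taken after subtraction of group means, with 100000 permutations of pigs within groups, two-sided. The fit was checked on simulated data. The members and lists were chosen with earlier results of these data known. Named were the catalytic and immunoproteasome members, the 2 members of each class with the largest change in either comparison with CON, the 3 with the largest SD, and genes with several probe sets, 27 probe sets in all; others were named after their values were seen and the correlations with fibre markers were added then. Alternatives were the methods' t-test, fits of 2 groups only, a replicate block, leaving out the dimmest 30%, quantile normalization, median centring, array weights, another prior, 1 probe set per gene and leaving out each pig.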

Additional observations from a re-analysis of the deposited data

Results flagged for a closer look

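In 90 groups of 6 pigs (27 named probe sets and 3 class medians in 3 groups), 6 held a pig far from the other 5, by a gap over 0.625 of the group's whole range. Chance gives about 1 in 20, or 4.5. The low pigs were IM5 replicate 2 for PSMB7 at 8.06, CON replicate 6 for PSMD11 at 8.79 and for the median deviation of the 20S core at -0.106, IM5 replicate 4 for PSMD14 (15236281) at 7.64, and IM5 replicate 1 for PSMG3 at 5.20. PSME4 was high at 9.45 in IM5 replicate 5.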

How the results depend on the processing

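None of the 9 alternatives that kept all pigs called any member in any comparison, the replicate block included. Replicate numbers did not pair the pigs in general. The correlation of deviations ran from -0.122 to 0.305, over 0.1 for 5 of 18 pairs, and 5 of 18 matched their own number best. Replicate 1 was its own best match in each pair of groups (r = 0.22, 0.30 and 0.30). So was replicate 6 between CON and IM10 (0.24) and replicate 4 between IM5 and IM10 (0.070). With the replicate number as a block, 0 members were called in each comparison. The calls over all transcripts went from 284 higher and 298 lower to 302 and 352 in IM10 vs CON, and rose in the other comparisons too. Leaving out 1 pig in turn gave counts of 0 to 1 for members higher and 0 to 1 lower in IM10 vs CON, and 0 to 1 higher and 0 to 1 lower in IM10 vs IM5. The single calls were PSMD14 (15239536), PSMB6 and PSMD5, as given with those genes, and the cause was not tested. The median of the 20S core ranged from -0.011 to 0.053 in IM10 vs CON, highest without IM10 replicate 6, and from -0.018 to 0.041 in IM5 vs CON, highest without IM5 replicate 6. Under median centring the median r rose to 0.127 within the core, 0.25 within the cap and 0.209 between them. Over all alternatives, 79 of 2178 differences of named members had another sign than in the fit reported, in which none was called.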

Other observations

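Of the core assembly chaperones, PSMG3 had a negative r across pigs with 22 of the 28 core and cap members (median -0.274, from -0.696 to 0.278) and PSMG4 with 11 (median 0.138, from -0.742 to 0.546, the latter with PSMD8), and the difference between them was not tested. PSMG4 had r = -0.742 with PSMD10, itself an assembly chaperone (permutation p = 0.00184, adjusted over 703 pairs 0.0924) and rho = -0.728 (permutation p = 0.00302, adjusted 0.197), and r = -0.643 without the 2 pigs farthest out. PSMG3 had r = -0.696 with PSMD1 (permutation p = 0.00913, adjusted 0.229) and rho = -0.605 (permutation p = 0.0234, adjusted 0.333), and -0.441 without 2 pigs. With the slow fibre myosin MYH7, PSMG3 had r = 0.727 (permutation p = 0.00216, adjusted over 190 relations 0.0602) and rho = 0.664 (permutation p = 0.00549, adjusted 0.112), and 0.601 without 2 pigs, opposite in sign to PSMD1. None of these relations passed the correction.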
